A study of Rattus norvegicus with 10 samples.

Results

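The expression of 10 genes of sphingolipid synthesis and sphingosine phosphate turnover (Sphk1, Sphk2, Sgpl1, Ugcg, Sgms1, Degs1, Kdsr, Cers2, Cers5 and Cers6) was compared between rat macrophages that had taken up myelin and macrophages that had not. Every probe set whose only gene symbol in the array annotation is 1 of these 10 was used, which gave 14 probe sets out of 31042 tested, and 10 genes out of 14217 named. Sphk2 and Sgms1 each had 2 probe sets, Degs1 had 3, and the other 7 genes had 1 each.

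The cells were resident peritoneal macrophages of Hsdcpb:WU rats, a Wistar stock whose body weight but not age is given in the labels. They were collected by lavage and enriched by adherence to plastic, and the labels call them over 95% macrophages. The mye-macrophages (n = 5) received 100 µg/ml of isolated myelin for 3 days, and the control macrophages (n = 5) were left without myelin over the same 3 days. Both groups were then stimulated with IFNγ and IL-1β at 100 ng/ml for 9 hours, so no group shows macrophages without these cytokines. RNA of each sample was hybridised to an Affymetrix rat genome array, and every value below is a deposited RMA value on the log2 scale. The samples carry replicate numbers 1 to 5 in both groups, and samples of the same number were compared as pairs. What a number marks, and whether each sample came from a different animal, is not given. The p-values of the comparison in pairs therefore measure the spread of the differences within these pairs, which may be technical.

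Sphingolipids are built on ceramide. Synthesis starts with serine palmitoyltransferase, Kdsr reduces its product, the ceramide synthases (Cers2, Cers5 and Cers6 here) attach a fatty acid and Degs1 introduces the double bond that makes ceramide. Ceramide then receives a head group, from Ugcg to give glucosylceramide or from Sgms1 to give sphingomyelin, or it is cut to sphingosine, which the kinases Sphk1 and Sphk2 phosphorylate and the lyase Sgpl1 removes from the pathway by cleaving sphingosine 1-phosphate. Sphingosine 1-phosphate is a signalling lipid that acts on its own receptors and guides the traffic of immune cells, and myelin is itself rich in sphingomyelin and galactosylceramide.

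The arrays had medians of 2.30 to 2.34 and correlated at 0.975 to 0.996 with each other. The macrophage genes Lyz2, a lysozyme, and Cd68, a lysosomal glycoprotein, lay between 11.93 and 12.55 and between 11.10 and 11.48 over the 10 arrays. Some other macrophage genes varied more, Adgre1 from 5.09 to 7.49, Cd14 from 9.54 to 11.72 and Mrc1 from 0.95 to 5.42. Adgre1 was higher in replicates 3 and 4 than in the others, in both groups. Cd163, a scavenger receptor of some macrophages, was dim, with a mean of 1.06. Of 18 probe sets of 10 oligodendrocyte and myelin genes, 3 were called as higher in mye-macrophages, 1 each of Mbp, Mobp and Bcas1, and none as lower. These 3 are also on the study's own list of changed genes, which was made from these samples. The other probe sets of Mbp, the myelin basic protein gene, were at -0.20 (the brightest) and -0.04, and those of Mobp at 0.01 and 0.12. Control replicate 1 stood apart from the other controls in the called probe sets of Mbp (5.94, against at most 3.95) and Mobp (3.44, against at most 1.34). Its partner, mye replicate 1, had 8.40 and 6.40. Without replicate 1 the changes of the called probe sets of Mbp, Mobp and Bcas1 were 3.60, 3.76 and 1.67. All 3 were still called in limma (adjusted p = 0.00206, 0.0144 and 0.0332). Values without replicate 1 are also given beside each other gene that was called.

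Among the sphingolipid members, the sphingosine kinase Sphk1 was lower in mye-macrophages, and no other member passed the test. Sphk1 fell by 0.45 on the log2 scale, from 4.64 ± 0.43 to 4.18 ± 0.60 (SD, n = 5). The remaining 13 probe sets had log2 fold changes of -0.31 to 0.18 and had intervals that mostly included 0. The test was that of limma blocked on the replicate number, and a probe set was called at an adjusted p under 0.05 over the 15521 probe sets in the more variable 50% of the array. It called 2.69% of those probe sets, 1.90% as lower and 0.792% as higher, against 1 of the 10 member probe sets that passed this variance filter. At an unadjusted p under 0.05 it took 3 of the 14 member probe sets, those of Sphk1, Ugcg and the dimmest Degs1 probe set, against 12.1% of all tested. With p-values adjusted over all tested probe sets it called 0.412% of them and no member. In none of the 14 were the groups free of overlap, which 0.734% of all tested probe sets were. With the brightest probe set for each gene, 9 of 10 members were below 0, with a median of -0.10, and 6839 of all 14217 genes were below 0, with a median of 0.01. Degs1 is among these 9 by its brightest probe set, although its less bright probe sets were at 0.12 and 0.18. In bulk RNA, fewer cells of a type and less RNA per cell cannot be told apart.

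**Figure D1:**
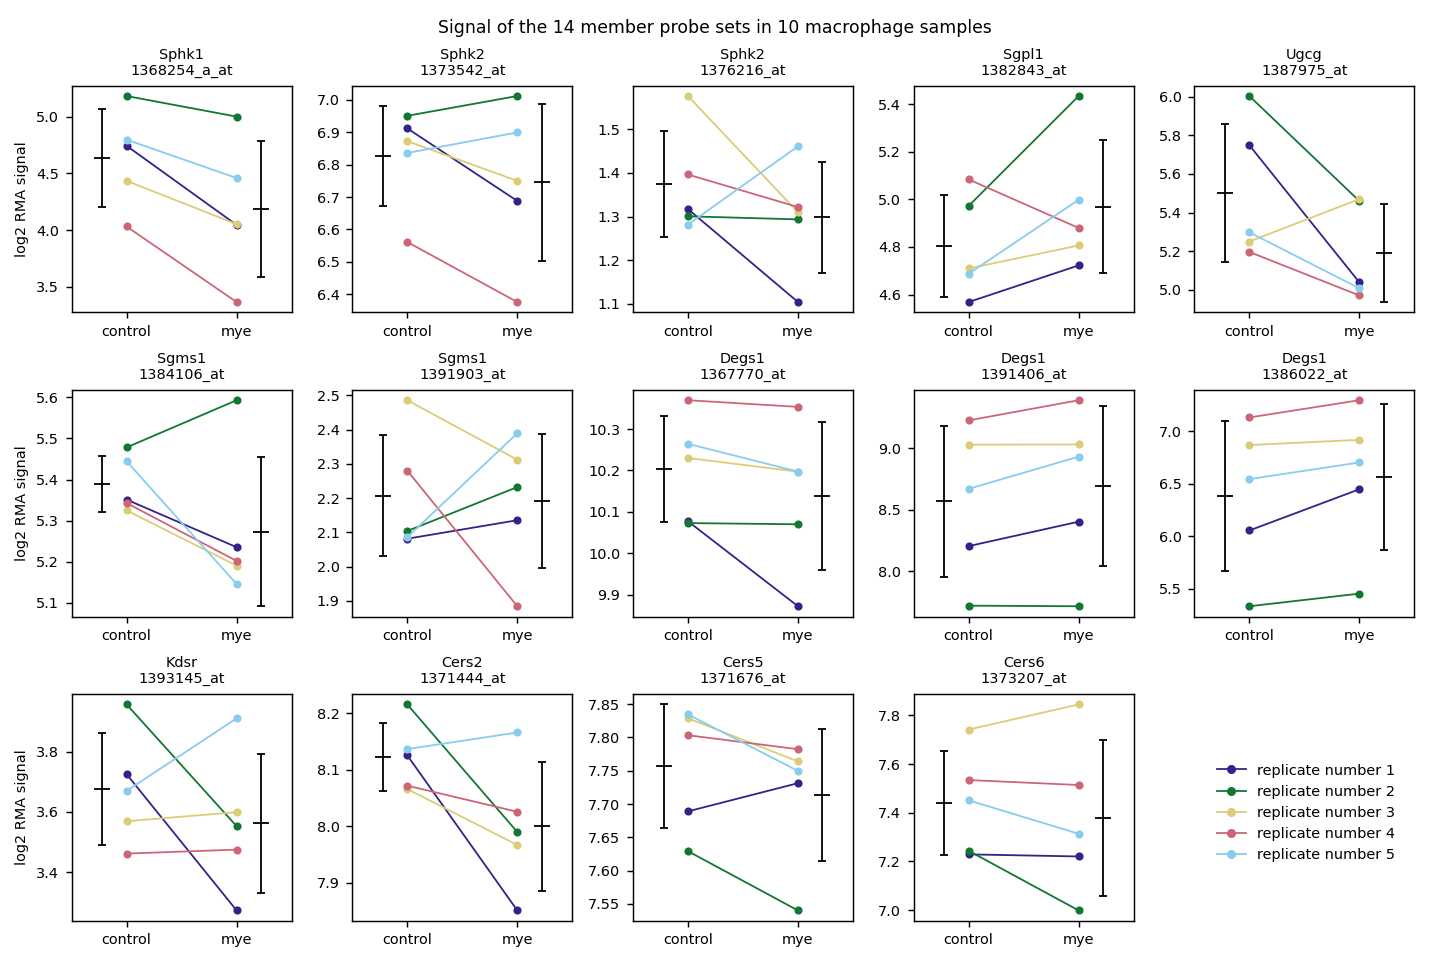
Deposited log2 RMA signal of each member probe set in the 5 control macrophage and the 5 mye-macrophage samples, with lines joining samples of the same replicate number. The lines of Sphk1 all run downward, from 4.03 to 5.18 in control macrophages to 3.37 to 5.00 in mye-macrophages, while the groups overlap in every panel.

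Sphk1, the sphingosine kinase that is induced by cytokines and growth factors, had log2 signals of 4.74, 5.18, 4.43, 4.03 and 4.80 in control replicates 1 to 5. The same-numbered mye-macrophages had 4.05, 5.00, 4.05, 3.37 and 4.46. Each mye-macrophage sample lay below its partner, by 0.70 on the log2 scale in replicate 1, the largest gap, and by 0.18 in replicate 2, the smallest, yet the groups overlapped because the replicate numbers themselves were far apart. The change was -0.45 (SE 0.09, 95% interval -0.65 to -0.25), a level 1.37-fold higher in control macrophages, with an adjusted p of 0.0361 in limma. A fall in 5 of 5 pairs was found in 6.59% of all tested probe sets. The call ended with p-values adjusted over all probe sets (adjusted p = 0.0721), with the replicate number as a random block (0.358), without a block (0.883), and without replicate 1, 2, 4 or 5 (0.0643 to 0.118). Without replicate 1, whose control stood apart in Mbp, the change was -0.39 with an adjusted p of 0.118.

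Sphk2, the second sphingosine kinase, which is found in the nucleus and mitochondria as well as the cytosol, did not pass the test. Its brighter probe set had 6.91, 6.95, 6.87, 6.56 and 6.84 in control macrophages and 6.69, 7.01, 6.75, 6.38 and 6.90 in mye-macrophages, a change of -0.08 (SE 0.07, 95% interval -0.25 to 0.08, adjusted p = 0.573 in limma). It was higher in 2 of 5 pairs and lower in 3. A dim probe set of Sphk2, at a mean of 1.34 and so below the 2.32 that is the median of all probe sets, gave -0.08 as well (interval -0.26 to 0.10).

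Sgpl1, the lyase that degrades sphingosine 1-phosphate for good, was the only member gene whose brightest probe set was above 0, and it did not pass the test. Its signals were 4.57, 4.97, 4.71, 5.08 and 4.69 in control macrophages and 4.72, 5.43, 4.81, 4.88 and 5.00 in mye-macrophages. It was higher in 4 of 5 pairs, with replicate 4 as the exception, with a log2 fold change of 0.16 (SE 0.10, 95% interval -0.05 to 0.38, adjusted p = 0.369 in limma).

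The kinase and the lyase thus stood on different sides of 0, and the difference between their changes was tested itself, as was that between the kinases. These 2 contrasts were chosen after the values had been seen. Within pairs, the change of Sphk1 minus that of Sgpl1 was -0.62 ± 0.16 (SD, n = 5 pairs) and lay between -0.85 and -0.46. The change of Sphk1 minus that of Sphk2 was -0.37 ± 0.11, between -0.48 and -0.24. Both were below 0 in 5 of 5 pairs, and the exact two-sided sign-flip test gave p = 0.0625 for each (0.0625 adjusted over both), which is the smallest p that 5 pairs allow. A p below 0.05 could therefore not be reached.

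**Figure D2:**
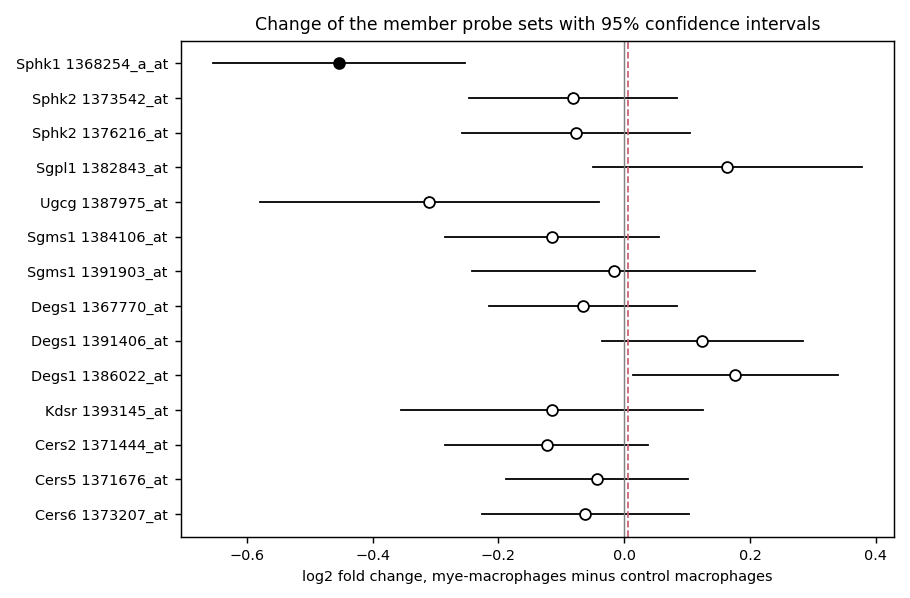
Log2 fold change of each member probe set, mye-macrophages minus control macrophages, with its 95% confidence interval from limma with the replicate block; the filled point is the called probe set and the dashed line is the median of all named genes (0.01). The interval of Sphk1 runs from -0.65 to -0.25, and those of Ugcg (-0.58 to -0.04) and the dimmest Degs1 probe set (0.01 to 0.34) are the others that leave out 0.

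No member gene of the steps that lead to ceramide passed the test. Serine palmitoyltransferase, which starts these steps, is not among the members. Kdsr, which makes dihydrosphingosine, had 3.73, 3.96, 3.57, 3.46 and 3.67 in control macrophages and 3.27, 3.55, 3.60, 3.47 and 3.91 in mye-macrophages. Replicates 1 and 2 were lower with myelin and replicates 3 to 5 were level or higher. Its change of -0.11 (SE 0.11, 95% interval -0.35 to 0.13, adjusted p = 0.587 in limma) was close in size to its standard error. Its sign turned, to 0.03, once the beta-actin gap described below was a covariate.

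The ceramide synthases differ in the length of the fatty acid they attach, very long chains for Cers2 and palmitate for Cers5 and Cers6. Cers2 had 8.13, 8.22, 8.07, 8.07 and 8.14 in control macrophages and 7.85, 7.99, 7.97, 8.03 and 8.17 in mye-macrophages, a change of -0.12 (SE 0.07, 95% interval -0.29 to 0.04). Cers5 had 7.69, 7.63, 7.83, 7.80 and 7.83 against 7.73, 7.54, 7.76, 7.78 and 7.75, a change of -0.04 (SE 0.06, interval -0.19 to 0.10). Cers6 had 7.23, 7.24, 7.74, 7.53 and 7.45 against 7.22, 6.998, 7.85, 7.51 and 7.31, a change of -0.06 (SE 0.07, interval -0.23 to 0.10). Each of the 3 was lower in 4 of 5 pairs, as at least that many pairs were in 22.4% of all tested probe sets, and none passed the test, with adjusted p-values over all probe sets of 0.539, 0.841 and 0.793 in limma. The intervals of these synthases leave out a change as large as the estimate for Sphk1.

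Degs1, the desaturase that turns dihydroceramide into ceramide, gave different signs on its 3 probe sets. The brightest had 10.08, 10.07, 10.23, 10.37 and 10.26 in control macrophages and 9.87, 10.07, 10.20, 10.35 and 10.20 in mye-macrophages, and was lower in 5 of 5 pairs by a mean of 0.06 (SE 0.07, 95% interval of the change -0.21 to 0.08). The next brightest had 8.20, 7.72, 9.03, 9.22 and 8.67 against 8.40, 7.71, 9.03, 9.39 and 8.93, a change of 0.12 (SE 0.07, interval -0.04 to 0.28). The dimmest had 6.05, 5.33, 6.87, 7.13 and 6.54 against 6.45, 5.45, 6.92, 7.29 and 6.70, a change of 0.18 (SE 0.07, interval 0.01 to 0.34) that was higher in 5 of 5 pairs, as were 6.16% of all tested probe sets. None of the 3 passed the test (adjusted p over all probe sets 0.756, 0.530 and 0.371 in limma), and with their different signs they give no direction for the gene.

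Neither of the member enzymes that add a head group to ceramide passed the test. Ugcg, the glucosylceramide synthase from which most glycosphingolipids derive, had 5.75, 6.003, 5.25, 5.20 and 5.30 in control macrophages and 5.04, 5.46, 5.47, 4.97 and 5.01 in mye-macrophages. It was lower in 4 of 5 pairs and higher, by 0.22, in replicate 3. The change was -0.31 (SE 0.12, 95% interval -0.58 to -0.04, adjusted p = 0.192 in limma), the largest of the members after Sphk1. Without replicate 3 it was -0.44 and was called (adjusted p = 0.0414), without replicate 1 it was -0.21, and once the beta-actin gap was a covariate it was -0.08.

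Sgms1, a sphingomyelin synthase of the Golgi, had 5.35, 5.48, 5.32, 5.34 and 5.44 in control macrophages and 5.24, 5.59, 5.19, 5.20 and 5.15 in mye-macrophages on its brighter probe set. Mye replicate 2 was the highest of the 10 samples and the others of its group were all below every control sample, which left a change of -0.11 (SE 0.08, 95% interval -0.28 to 0.05, adjusted p = 0.429 in limma). Its dim probe set, with a mean of 2.20, gave -0.02 (interval -0.24 to 0.21).

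**Figure D3:**
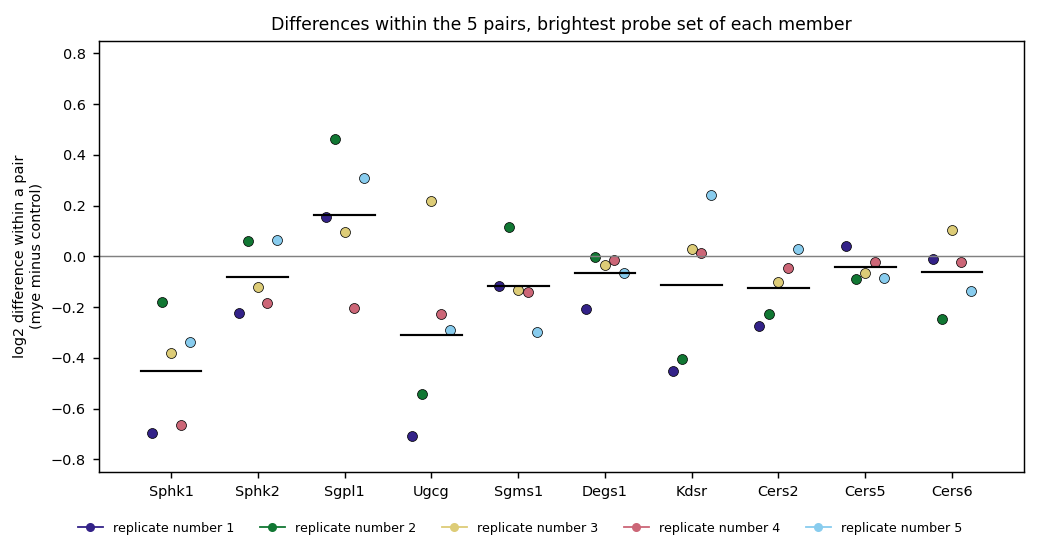
Difference in log2 signal, mye-macrophage minus control macrophage, within each replicate number for the brightest probe set of each member gene. The 5 points of Sphk1 run from -0.70 to -0.18, all below 0, whereas those of Ugcg lie below 0 except for replicate 3 at 0.22.

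In each member probe set, the range of the pair means over the replicate numbers was larger than the difference between the group means. A range and a difference of means are unlike measures, and they were not compared in a test. The mean of a pair ranged over 1.39 on the log2 scale for Sphk1, from 3.70 in replicate 4 to 5.09 in replicate 2. For Degs1 it ranged over 1.59 and 1.82 on the 2 dimmer probe sets, both lowest in replicate 2 and highest in replicate 4, and over 0.39 on the brightest. Cers2 varied least, over 0.16, and Cers5 over 0.21. The median difference of the 10 member genes within a pair was -0.21, -0.14, -0.05, -0.09 and -0.08 for replicates 1 to 5, whereas that of all genes lay between -0.01 and 0.01.

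Other genes of the pathway were taken from 8 lists with 58 genes, of which 46 were measured, and are given by the brightest probe set of each. The test called 1 of the 46 as higher, the ganglioside synthase St3gal5, and 1 as lower, the receptor S1pr1, which is 4.35% of the 46, against 1.39% of all 14217 genes by the same rule (0.577% higher and 0.816% lower). Of the 46, 30 were above 0 and 16 below, with a median of 0.04, and 15 were dim. The members and these lists were therefore on different sides of 0 by their medians, which was not tested as a difference.

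St3gal5 adds sialic acid to lactosylceramide and so makes GM3, the first ganglioside of the series downstream of Ugcg. Its signals were 6.48, 6.25, 6.01, 6.92 and 6.13 in control macrophages and 7.43, 6.90, 6.37, 7.02 and 6.67 in mye-macrophages, higher in 5 of 5 pairs by 0.10 to 0.95. The change was 0.52 (SE 0.11, 95% interval 0.27 to 0.77, adjusted p = 0.0443 in limma), a 1.43-fold increase. The call ended with p-values adjusted over all probe sets (0.0887), with the replicate number as a random block (0.184) and without a block (0.674), and of the 5 replicate numbers only replicate 3 could be left out without losing it (0.0424). Without replicate 1 the change was 0.41, with an adjusted p of 0.122, and once the beta-actin gap was a covariate it was 0.33. The other 6 genes of glycosphingolipid synthesis were not called, and the lowest, B3galt4, was at -0.05.

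S1pr1, the sphingosine 1-phosphate receptor that governs the exit of lymphocytes from lymph nodes, had 4.82, 4.62, 4.73, 4.25 and 5.56 in control macrophages and 4.25, 4.56, 4.33, 3.35 and 4.87 in mye-macrophages. All 5 pairs were lower, replicate 4 by the most and replicate 2 by the least, and the groups overlapped. The change was -0.52 (SE 0.11, 95% interval -0.77 to -0.27, adjusted p = 0.0443 in limma). The call ended after a further quantile normalization (0.0526), with p-values adjusted over all probe sets (0.0886), with the replicate number as a random block (0.295) and without a block (0.829), and it remained without replicate 3 (0.0444) but not without any other number. Without replicate 1 the change was -0.51, with an adjusted p of 0.135. Its dim probe set was at 0.03.

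The other receptors measured were not called, and are named here although the rule for named genes did not choose them. S1pr2 had a log2 fold change of 0.21 (SE 0.09, adjusted p = 0.219 in limma), S1pr3, which was dim, of 0.18 (SE 0.07, adjusted p = 0.192), and S1pr5 of 0.05. Plpp3, a membrane phosphatase that dephosphorylates sphingosine 1-phosphate and other lipid phosphates outside the cell, had probe sets of different sign. The brightest was at 0.26 (SE 0.10, adjusted p = 0.192) and was higher in 5 of 5 pairs, another was at -0.37 (SE 0.13, adjusted p = 0.155) and was lower in 4 of 5, and the third was at 0.05.

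**Figure D4:**
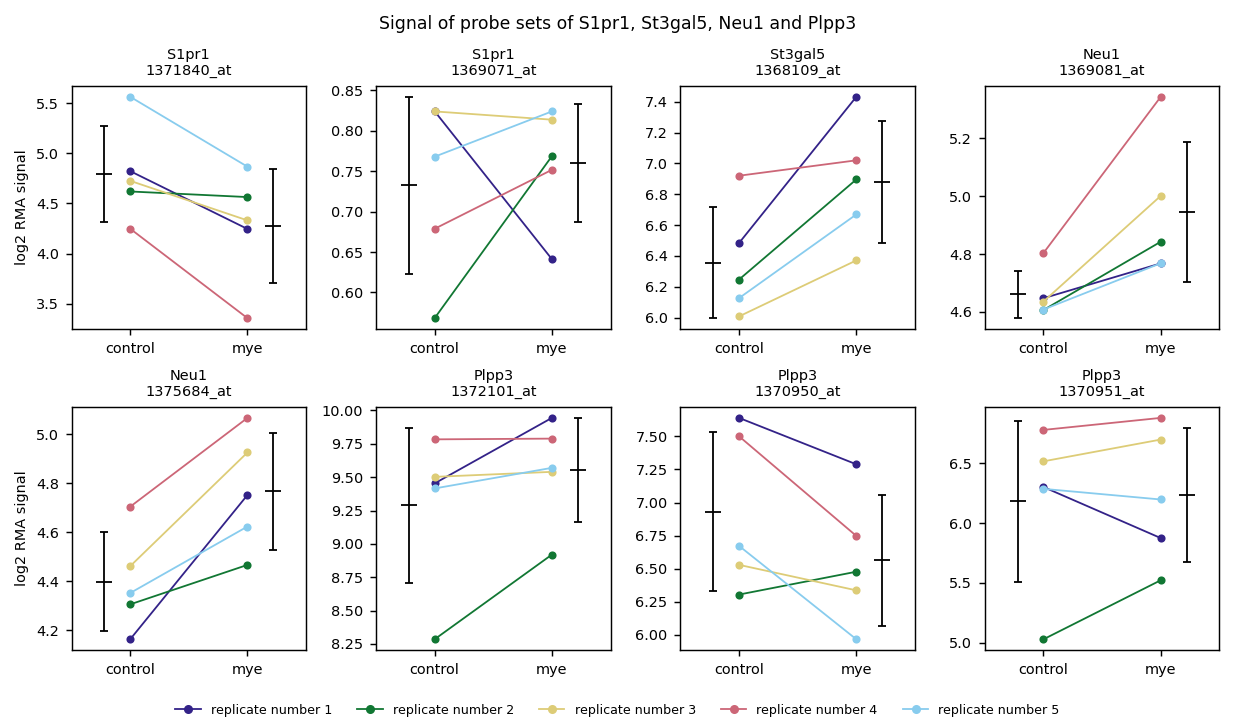
Deposited log2 RMA signal of the probe sets of S1pr1, St3gal5, Neu1 and Plpp3 in the 5 control macrophage and 5 mye-macrophage samples, with lines joining the same replicate number. St3gal5 rises and S1pr1 falls on its brighter probe set in each of the 5 pairs, while the dim S1pr1 probe set is at 0.03.

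Of 8 listed genes of serine palmitoyltransferase and its regulators, 4 were measured. The subunit genes Sptlc1, Sptlc2 and Sptlc3 were not among these 4. None of the 4 was called, with a median of -0.11, from Ormdl3, an inhibitor of the enzyme, at -0.18 to the dim subunit gene Sptssb at 0.22. Of the other ceramide synthases and desaturase, 2 of 4 were measured, Cers4 at 0.11 and Degs2 at -0.02, and both were dim. The 4 genes of sphingomyelin and ceramide phosphate ran from Samd8 at -0.20 to Sgms2, the sphingomyelin synthase of the plasma membrane, at 0.25 (SE 0.11, adjusted p = 0.248 in limma). The 3 genes of the galactolipids of myelin, Ugt8, Gal3st1 and Fa2h, were all dim and at 0.05, 0.18 and 0.04.

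The genes of breakdown were also not called by their brightest probe sets. The 9 genes of sphingomyelin and ceramide breakdown ran from Smpd4, a neutral sphingomyelinase, at -0.09 to Asah1, the acid ceramidase of the lysosome, at 0.11, with a median of 0.02. The 9 measured of 11 genes of glycosphingolipid breakdown ran from the galactosidase gene Gla at -0.14 to the lysosomal sialidase gene Neu1 at 0.28, with a median of 0.01. A less bright probe set had the other sign for Asah1 (-0.07) and for Gla (0.08), and neither was called.

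Neu1, which removes sialic acid from gangliosides and glycoproteins, had 2 probe sets that were both higher in 5 of 5 pairs. The brighter had 4.65, 4.61, 4.64, 4.80 and 4.61 in control macrophages and 4.77, 4.84, 5.00, 5.34 and 4.77 in mye-macrophages, a change of 0.28 (SE 0.08, adjusted p = 0.0946 in limma). The other had 4.16, 4.31, 4.46, 4.70 and 4.35 against 4.75, 4.47, 4.93, 5.07 and 4.62, a change of 0.37 (SE 0.08, adjusted p = 0.0443) that was called. That probe set is on the study's list of changed genes, which was chosen on these samples and is no independent evidence, and its call ended when any 1 of the 5 replicate numbers was left out (0.0653 to 0.129, with a change of 0.31 without replicate 1). It also ended with each array centred on its median (0.0508), with p-values adjusted over all probe sets (0.0887), with a random block (0.134) and without a block (0.586).

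**Figure D5:**
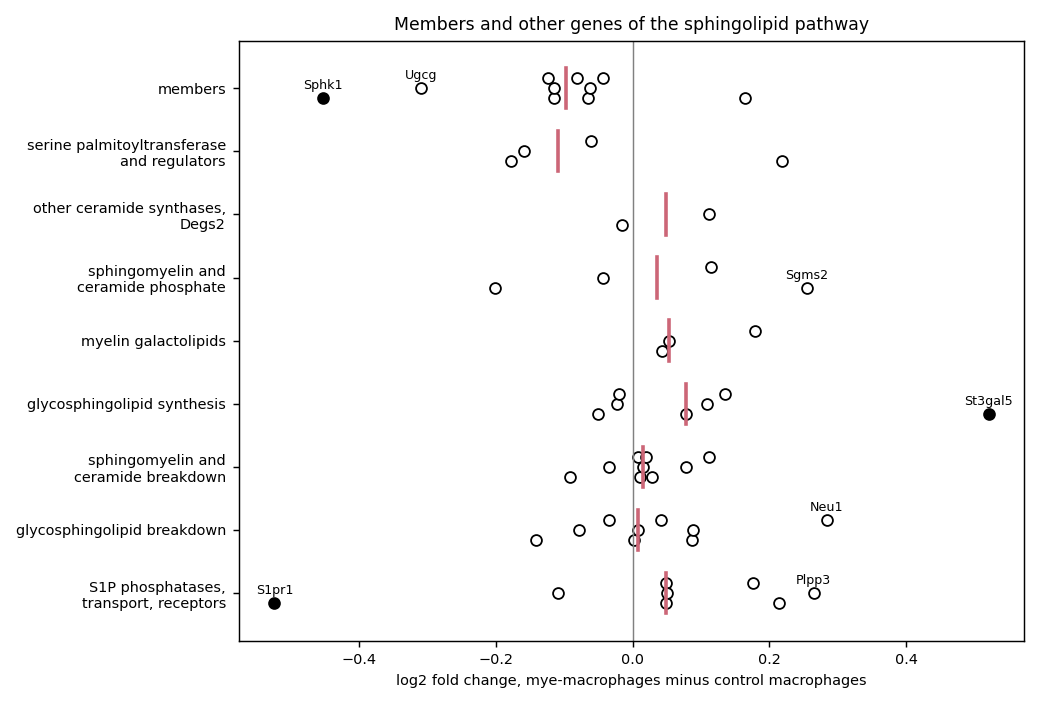
Log2 fold change, mye-macrophages minus control macrophages, of each measured gene of the members and of the 8 other sphingolipid lists, by its brightest probe set, with filled points for called genes. The members have a median of -0.10, the called points are Sphk1 at -0.45, S1pr1 at -0.52 and St3gal5 at 0.52, and the other genes lie between -0.31 and 0.28.

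Markers of other cells and a sign of RNA quality were measured beside these values. Each sum is of linear signal over the brightest probe set of each gene. That of the 10 oligodendrocyte and myelin genes was 177 to 217 in control macrophages and 220 to 285 in mye-macrophages, without overlap, with 4 of the 10 dim. Mbp entered this sum with its brightest probe set, at -0.20, and not with the called one. Of the 10 probe sets summed, only those of Mobp and Bcas1 were called. The 9 measured macrophage genes summed to 8156 to 11220 and 9059 to 11951, and of them the mannose receptor gene Mrc1 rose, by 0.71 (adjusted p = 0.0265 in limma). The Mrc1 call ended with p-values adjusted over all probe sets (0.0530), with a random block (0.605), without a block (0.935) and without replicate 1, 2, 4 or 5 (0.0510 to 0.0947), and without replicate 1 the change was 0.61. No gene of the other lists was called, and their sums overlapped between the groups, at 42.2 to 61.2 and 36.2 to 78.4 for T, B and NK cells, 22.3 to 340 and 23.3 to 357 for mast cells and granulocytes, and 19.4 to 89.7 and 18.2 to 92.7 for mesothelial cells and fibroblasts. The gap between the 3' and the 5' probe sets of beta-actin widens as RNA is degraded or copied incompletely. It was 3.02 ± 0.30 in control macrophages and 3.30 ± 0.32 in mye-macrophages (SD, n = 5). An exact two-sided permutation test over the samples, which ignored the pairs, gave p = 0.190, where 0.00794 is the smallest possible. The gap was larger with myelin in 4 of 5 pairs. It differed most in replicate 1, at 2.66 in the control and 3.48 in the mye-macrophage sample. With this gap as a covariate, Sphk1 was at -0.43, S1pr1 at -0.56 and St3gal5 at 0.33, and none was called (adjusted p = 0.236, 0.217 and 0.265 in limma). The part of the myelin genes and of RNA quality in these results was not tested otherwise.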

How the data were processed

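The authors normalized 10 arrays by RMA in the affy package and deposited the log2 values. No scanner file was used here. The values run from -0.04 to 13.09, and why the array medians are as low as 2.30 is not given in the sources used here. The 57 control probe sets were left out. Gene symbols came from the array annotation, which gives 1 symbol to 20826, several to 436 and none to 9780 of the probe sets tested. The 31042 probe sets were fitted in limma 3.58.1 (R 4.3.3) with the replicate number as a block, p-values were adjusted by Benjamini-Hochberg over the 15521 with the larger interquartile range, and "adjusted over all probe sets" means without this filter. The study's methods used an unpaired t-test, given among the alternatives. The block was used because deviations from the group means correlated at 0.404 to 0.791 between samples of the same number, each above 0.1, and at most at 0.279 otherwise, and each number matched best with itself in 5 of 5 cases.

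The brightest probe set stood for a gene in lists. Named were all member probe sets, called genes of the other lists with the highest and lowest of each, and called or defining markers; S1pr2, S1pr3, S1pr5 and Ugt8 were added after their values were seen. The members and lists were chosen with earlier results of these data known. The number of arrays limits the precision, and the fit was tested on simulated data. Alternatives changed the block, the filter, the scaling, array weights, the variance prior, the test and the replicate numbers included; the beta-actin covariate was added after seeing the data. List genes with no matching probe set were not analysed here.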

Additional observations from a re-analysis of the deposited data

Results flagged for a closer look

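In groups of 5 samples, a sample was singled out where its gap to the nearest other sample took up more than 0.71 of the range of the group (Dixon's 95% value). This held for 11 of 84 groups tested, where chance singles out about 1 in 20. The groups were the control and the mye-macrophage samples of 42 probe sets of members, other named sphingolipid genes and called markers. They share the same arrays, some probe sets are of the same gene and some were named for their change. The 11 are therefore not independent, and an excess over 1 in 20 was not tested. Among the members, mye replicate 2 stood apart in Sgms1 (5.59, nearest 5.24) and in Cers5 (7.54, nearest 7.73). The same mye replicate 2 stood apart in the dim Sptssb (2.03, nearest 1.67). Control replicate 2 stood apart in Cers4 (1.37, nearest 1.05), in S1pr2 (5.06, nearest 5.55) and in 2 Plpp3 probe sets (8.28, nearest 9.42, and 5.03, nearest 6.29). Replicate 4 stood apart in Smpd4 among mye-macrophages (4.36, nearest 4.66) and in Neu1 among control macrophages (4.80, nearest 4.65). Control replicate 1 stood apart in the called probe sets of Mbp (5.94, nearest 3.95) and Mobp (3.44, nearest 1.34). No value of Sphk1, Sphk2, Sgpl1, Ugcg, Degs1, Kdsr, Cers2 or Cers6 was singled out.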

How the results depend on the processing

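The counts of called probe sets depended on the settings, while the median change of the 10 members lay between -0.11 and -0.06 in every alternative run. Settings that changed only the block, the filter, the variance prior or the test could not move a log2 fold change, because every replicate number is in both groups. Only the other settings bear on how stable that median is. In the order all probe sets, members, other sphingolipid genes, the counts were 418, 1 and 2 as reported, 0, 0 and 0 in limma with no replicate block (1032 at an unadjusted p under 0.05, no member among them), 0, 0 and 0 in the methods' t-test (778, no member), 11, 0 and 0 with the replicate block as a random effect, 128, 0 and 0 with no variance filter, and 16, 0 and 0 once the beta-actin gap was a covariate. The variance prior with a trend called 1066 probe sets and the further quantile normalization called 1 other sphingolipid gene. Without 1 replicate number the counts ran from 31 to 672, 0 to 2 and 0 to 2, with the highest of each without replicate 3. With the probe set of the largest interquartile range for each gene, 3 other sphingolipid genes were called. The sign turned with the beta-actin gap for Kdsr (0.0277), Degs2 (0.0168), Ugt8 (-0.0194) and Fa2h (-0.118). Without 1 replicate number it turned for the dim Sgms1 probe set (-0.10 to 0.0780), Degs2 (-0.0463 to 0.0242), Fa2h (-0.0452 to 0.19), B3galt4 (-0.0874 to 0.0037), S1pr5 (-0.0112 to 0.0944), the dim S1pr1 probe set (-0.0160 to 0.0797) and a Plpp3 probe set (-0.0583 to 0.17). The change of Sphk1 minus that of Sphk2 stayed below 0 in every setting run, at -0.40 to -0.34, and minus that of Sgpl1 at -0.66 to -0.51. These contrasts were chosen after the values had been seen, and the settings that cannot move a log2 fold change could not move them either. The cause of these differences between settings was not tested.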
